A study of Triticum aestivum with 2 samples.

Results

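Some MNase hypersensitive sites (MHSs) of common wheat were found in 1 tissue only and still lay close to an MHS of the other tissue. These near-unique MHSs are the subject here. They were chosen by the positions of the MHSs in a seedling list and a spikelet list: an MHS was kept when it overlapped no MHS of the other tissue but had one at most 500 bp away, edge to edge, on the same sequence part. This gave 13395 of 289446 MHSs in the seedling (4.63%) and 13402 of 277119 in the spikelet (4.84%), or 26797 of 566565 in all. Among unique MHSs, they made up 12.5% for seedling (12.3 to 12.7, 95% by Wilson's method) and 14.8% for spikelet (14.6 to 15.1).

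MNase cuts DNA that is not protected by nucleosomes or other proteins, so a site where short fragments pile up is a stretch of accessible chromatin. Such stretches commonly mark promoters, enhancers and other cis-regulatory elements, and a single promoter can hold several of them. Common wheat is an allohexaploid with A, B and D subgenomes, so that most loci have homoeologous counterparts, and its gene-rich euchromatin lies toward the chromosome ends. An MHS that is present at neighbouring but separate positions in vegetative and reproductive tissue is counted as tissue-specific by an overlap rule, although accessible chromatin is found at that locus in both tissues. The comparison here asks how such loci are built: how far apart the MHSs lie, whether the neighbour is itself shared, and where in the genome they are.

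The material was wild-type Chinese Spring, without treatment. Seedlings carried the label 10 days, spikelets the label booting stage. The study's methods give a slightly younger seedling age and name both whole seedlings and above-ground parts, and both materials mix many cell types. Each list was made by the authors from 2 merged biological replicates, so there was 1 list per tissue, no spread between replicates could be measured, and nothing was tested between the tissues. The intervals given cover counting error only. Coordinates are those of version 1.0 of the IWGSC reference sequence, in which each chromosome is cut into 2 sequence parts. The fold of an MHS is the authors' ratio of the reads at its summit to its local background, each plus 1. Fold and p-value together gave the number of reads at the summit, which came out whole, within 0.05 reads, for 100% of the near-unique MHSs of either list. With an assumed read extension of 200 bp and an assumed genome size of 14 Gb, the lowest background corresponded to a depth of 185 M reads for seedling and 182 M reads for spikelet. The lists do not hold the reads of a tissue at places where it has no MHS, so the signal of the other tissue under a near-unique MHS was not measured here.

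Gaps between near-unique MHSs and their neighbours were spread over the whole range up to 500 bp. The median gap was 280 bp in the seedling (95% interval 276 to 283, quartiles 167 and 386 bp) and 260 bp in the spikelet (257 to 264, quartiles 146 and 377 bp). Few MHSs just missed an overlap. Only 17 seedling and 27 spikelet MHSs touched their neighbour without sharing a base, and gaps of 100 bp or less were found in 14.3% (seedling) and 16.5% (spikelet). A gap over 250 bp was found in 56.9% and 52.3%. In 25-bp bins, the number of MHSs was highest at gaps of 225 to 249 bp in the seedling, with 832, and of 200 to 224 bp in the spikelet, with 792, against 483 and 545 in the bin from 0 to 24 bp. The neighbour lay to either side about equally, to the right in 50.4% and 50.5% of the cases, and on both sides within 500 bp for 534 and 483.

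**Figure D1:**
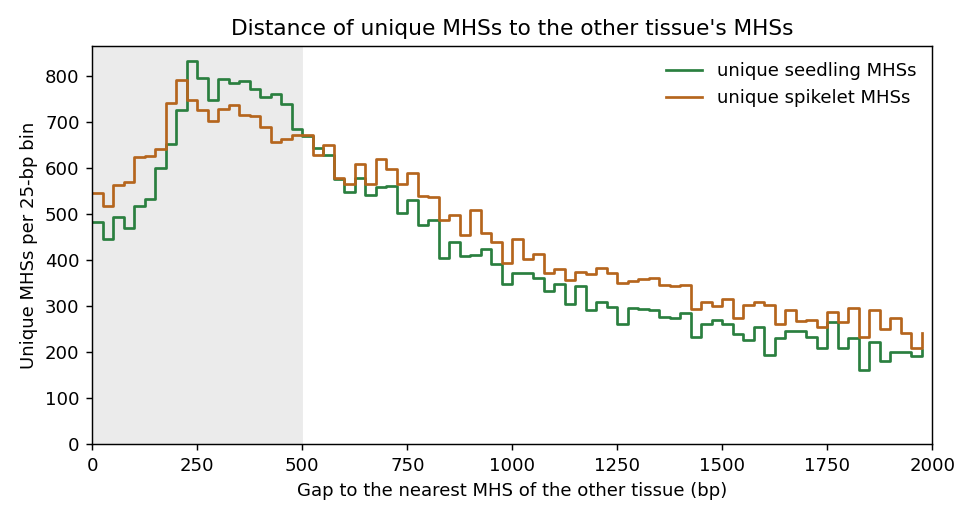
Number of unique MHSs (y axis, per 25-bp bin) by the gap in bp to the nearest MHS of the other tissue (x axis), for seedling (green) and spikelet (brown); the grey area marks the limit of 500 bp. Both curves rise to a maximum, 832 at 225 to 249 bp in the seedling and 792 at 200 to 224 bp in the spikelet, and then fall without a step at 500 bp.

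The limit of 500 bp did not fall at a break in the distances. In the last 50 bp up to the limit there were 1417 seedling MHSs, with a median width of 299 bp and a median fold of 3.46. In the 50 bp beyond it, 1314 unique seedling MHSs had a median width of 290 bp and a median fold of 3.44. In the spikelet, 1337 MHSs just inside had medians of 279 bp and 3.78, and 1296 just outside had 281.5 bp and 3.80. Over wider steps the numbers decreased from the 13395 seedling MHSs within 500 bp to 10121 between that and 1000 bp and 6069 from there to 1500 bp. In the spikelet they decreased from 13402 to 10946 and 7227.

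The nearest MHS of the other tissue was itself common, that is, overlapped by an MHS of the same tissue as the near-unique one, for 7878 of 13395 seedling MHSs (58.8%, 58.0 to 59.6) and 7862 of 13402 spikelet MHSs (58.7%, 57.8 to 59.5). Among all MHSs of the other tissue, 67.4% of those in the spikelet and 63.0% of those in the seedling were common. The remaining neighbours, of 5517 seedling and 5540 spikelet MHSs, were unique and so were near-unique MHSs in their own list by the rule. The loci therefore had 2 layouts, an additional MHS beside a site that both tissues shared, and a site at which each tissue had an MHS of its own.

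Which layout was found changed with the gap. The share of common neighbours was 23.8% (21.2 to 26.7) at gaps of 1 to 50 bp in the seedling and 32.7% (30.0 to 35.6) in the spikelet. It reached 67.9% and 65.4% at 251 to 300 bp and stayed between 67.6% and 70.0% in the seedling and between 65.3% and 66.6% in the spikelet over the bins from there to 500 bp. Part of this course was set by the lists themselves. No MHSs of the seedling list lay closer to each other than 140 bp, and none of the spikelet list closer than 65 bp. A common neighbour at a shorter gap must therefore extend beyond the MHS it overlaps in the other list, toward the near-unique MHS. The share was still rising beyond these spacings, from 54.8% at 151 to 200 bp in the seedling and 53.3% at 101 to 150 bp in the spikelet. How much of the course the spacing sets was not tested. Beside unique neighbours the median gap was 220 bp in both directions, and beside common ones 312.5 bp in the seedling and 287 bp in the spikelet. Most MHSs beside unique neighbours were each other's nearest, so both medians of 220 bp largely describe the same gaps.

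**Figure D2:**
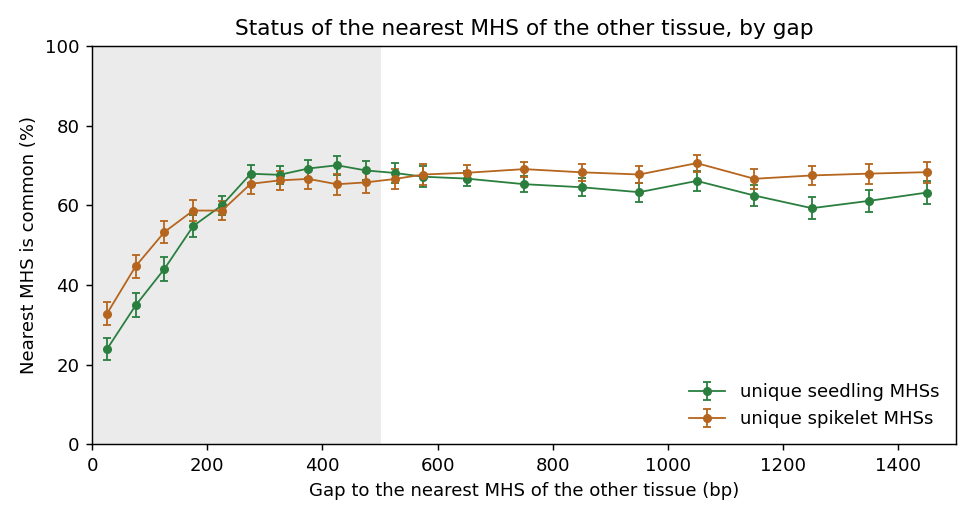
Share (%) of nearest MHSs of the other tissue that were common (y axis) by the gap in bp (x axis), for unique seedling (green) and spikelet (brown) MHSs, with 95% Wilson intervals; the grey area marks gaps up to 500 bp. The share climbs from 23.8% and 32.7% at 1 to 50 bp to 67.9% and 65.4% at 251 to 300 bp and is flat from there to 500 bp.

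Beside a common neighbour, the near-unique MHS was usually the weaker of a couple of MHSs of its own tissue. The same order held between the classes in general. Common MHSs had median folds of 4.62 (seedling) and 4.94 (spikelet), against 3.56 and 3.87 for unique MHSs farther than 500 bp. What the layout adds to this order was not tested. The MHS of the same tissue on the common neighbour was the next one in the list for 7876 of 7878 seedling and 7846 of 7862 spikelet MHSs. The median gap to it was 288.5 bp in the seedling and 310.5 bp in the spikelet, and it lay within 500 bp for 92.5% and 84.8%. It had the higher fold in 75.1% of the seedling cases (74.1 to 76.0) and 70.0% of the spikelet cases (69.0 to 71.0). Its median fold was 4.33 with 30 reads at the summit in the seedling, against 3.43 and 23 reads for the near-unique MHSs. In the spikelet these medians were 4.31 with 34 reads against 3.58 and 28 reads. The median of the ratio of the folds, near-unique over shared, had the values 0.802 (seedling) and 0.837 (spikelet).

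The edges of the shared site are given as a description, since the rule bears on them: the edge of the neighbour had to lie within 500 bp, whereas the MHS of the same tissue could lie farther and had only the smallest spacing of its list as a lower limit. In the seedling, the edge facing the near-unique MHS lay nearer to it in the spikelet MHS for 51.5% of the sites (50.4 to 52.6) and in the seedling MHS for 47.9%. In the spikelet, the MHS of the seedling reached closer at 59.6% (58.5 to 60.7) and that of the spikelet at 39.7%. Common neighbours of near-unique spikelet MHSs were seedling MHSs with a median width of 433 bp, and those of near-unique seedling MHSs were spikelet MHSs with 377 bp. The median over all common MHSs was 406 bp in the seedling and 374 bp in the spikelet. The common seedling MHSs that served as neighbours overlapped more than 1 spikelet MHS in 273 of 7862 cases (3.47%), and common spikelet neighbours more than 1 seedling MHS in 64 of 7878 (0.812%). These shares were not computed over all common MHSs, so they are not shown to be particular to the neighbours. The whole lists held fewer common MHSs in the seedling, 182399, than in the spikelet, 186718. The closest spacing within a list also differed, with 140 bp for seedling and 65 bp for spikelet, and its part in these values was not tested.

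Where the neighbour was unique, it was nearly always a pair of MHSs that were each other's nearest. There were 5338 such mutual pairs, which held 39.9% of the near-unique seedling MHSs and 39.8% of those in the spikelet. Only 179 seedling and 202 spikelet MHSs had a unique neighbour that lay nearer to another MHS. At 4425 of the 5338 pairs (82.9%, 81.9 to 83.9), no further MHS of either tissue lay within 500 bp of either one. The median gap of the pairs was 216 bp and their summits lay a median of 544 bp apart, with quartiles of 412 and 680 bp. For comparison, summits lay a median of 53 bp apart in the 173930 pairs in which 1 seedling MHS and 1 spikelet MHS overlapped only each other. This difference is largely set by the selection, since the MHSs of a mutual pair may not overlap. The spikelet MHS lay to the right of the seedling MHS in 49.3% of the mutual pairs (48.0 to 50.7).

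The fold in mutual pairs was low on both sides. The medians were 3.46 in the seedling, with 20 reads at the summit, and 3.81 in the spikelet, with 23 reads. The spikelet MHS had the higher fold in 64.3% of the pairs (63.0 to 65.6), and the median ratio of spikelet to seedling fold was 1.10. In the simple overlapping pairs, the spikelet fold was higher in 59.2% (59.0 to 59.5) and the median ratio was 1.07. Unique MHSs farther than 500 bp also had a higher median fold in the spikelet, 3.87 against 3.56 in the seedling, so this order is not particular to the pairs. Across the 5338 mutual pairs the Spearman rho of the 2 folds was 0.169, against 0.556 across the overlapping pairs. These are descriptions across sites that share the same libraries and local read density. The selection bears on them, since overlapping MHSs share bases and those of a mutual pair may not. Folds also spanned less in mutual pairs, with quartiles of 3.05 and 3.98 (seedling) or 3.31 and 4.44 (spikelet). Over all common MHSs the quartiles were 3.71 and 5.97 (seedling) or 3.94 and 6.29 (spikelet). How much of the lower rho this sets was not tested, so it is not shown to be particular to the mutual pairs. In 1466 pairs (27.5%) both MHSs had a q of 1e-05 or lower, and in 1259 (23.6%) neither had. A fold of 6 or more on both sides was found in 7 pairs.

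When MHSs of both lists were linked over gaps of at most 500 bp, the 26797 near-unique MHSs fell into 20646 clusters, of which 14792 held 1 of them, 5576 held 2 and 278 held 3 or more. The largest number was 4. The most frequent composition was 2 seedling MHSs with 1 spikelet MHS, in 6865 clusters (33.3%). It was followed by 1 seedling MHS with 2 spikelet MHSs in 6464 (31.3%) and by 1 of each in 4425 (21.4%). The clusters with 1 of each held 8850 of the near-unique MHSs, or 33.0%.

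Near-unique MHSs resembled other unique MHSs more than common ones in width and fold. In the seedling their median width was 297 bp (295 to 300), against 276 bp for unique MHSs farther than 500 bp and 406 bp for common MHSs. In the spikelet the medians were 284 bp (282 to 285), 275 bp and 374 bp. The lists hold no MHS under 200 bp, and 7.91% of the near-unique seedling and 8.31% of the near-unique spikelet MHSs had exactly this width, against 13.6% and 11.0% of the other unique MHSs. The widest near-unique MHS had 1313 bp in the seedling and 1839 bp in the spikelet, and 36 and 23 reached 1000 bp.

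The median fold was the lowest of the 3 classes in both tissues. It was 3.44 in the seedling (3.42 to 3.45), against 3.56 for other unique and 4.62 for common MHSs. In the spikelet it was 3.67 (3.64 to 3.68), against 3.87 and 4.94. The order was different for the reads at the summit, of which near-unique MHSs had a median of 22 in the seedling and 26 in the spikelet, against 17 and 24 at other unique MHSs and 32 and 35 at common ones. Their local background was higher than that of other unique MHSs, with seedling medians of 5.52 against 4.06 reads and spikelet medians of 6.04 against 5.20 reads, so that more reads gave a lower fold. Common MHSs had backgrounds of 6.10 and 5.84 reads. Whether neighbouring MHSs raised this background was not tested. A q of 1e-05 or lower was reached by 47.1% (seedling) and 65.4% (spikelet) of the near-unique MHSs, against 35.1% and 64.9% of the other unique ones. A fold of 6 or more was reached by 209 in the seedling (1.56%) and 450 in the spikelet (3.36%). Among other unique MHSs the share was 1.32% and 6.57%.

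**Figure D3:**
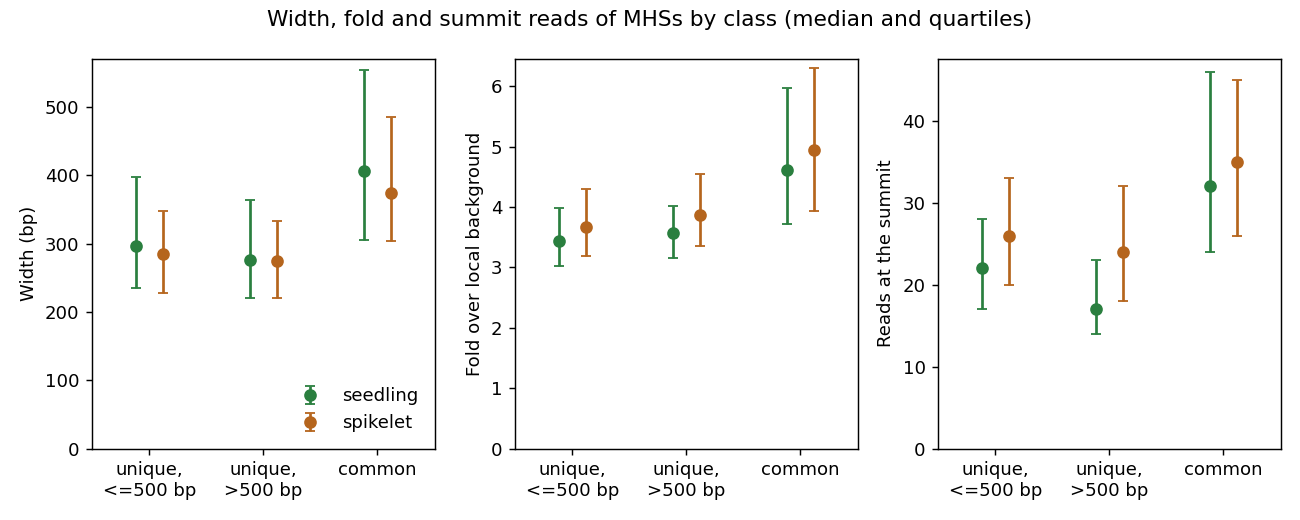
Width in bp, fold over the local background and number of reads at the summit (y axes) of near-unique MHSs (at most 500 bp), other unique MHSs (over 500 bp) and common MHSs, for seedling (green) and spikelet (brown); points are medians and bars span the quartiles. Near-unique MHSs had median folds of 3.44 and 3.67, below the 3.56 and 3.87 of other unique MHSs, and median summit reads of 22 and 26, above the 17 and 24 of other unique MHSs.

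Fold hardly changed with the gap, with a Spearman rho of 0.022 over the 13395 seedling MHSs and 0.056 over the 13402 spikelet MHSs. The summit lay in the part of the MHS nearer the neighbour for 48.5% (47.7 to 49.4) of them in seedling and 46.9% (46.0 to 47.7) in spikelet. The summits were thus not gathered on the side that faced the neighbour.

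Crowding by MHSs of the same tissue depended on the layout. Another MHS of the same list lay within 500 bp of 58.3% of the near-unique seedling and 52.8% of the near-unique spikelet MHSs, against 8.38% and 7.66% of other unique and 14.8% and 16.1% of common MHSs. This came from the MHSs beside common neighbours, where 93.0% and 85.7% had one, which is mostly fixed by the rule, since a common neighbour carries an MHS of the same tissue. Beside unique neighbours the shares were only 8.77% and 6.17%, and the nearest MHS of the same tissue was a median of 4510 bp and 4377.5 bp away.

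The near-unique MHSs with the largest folds are given here with their neighbours. In the seedling, an MHS on chromosome 1B (part 2, 92864689 to 92865169) had a fold of 11.5, a q of 1.58e-42 and 59 reads at the summit. It lay 92 bp from a common spikelet MHS (92864062 to 92864596) with a fold of 7.29, which overlapped a seedling MHS with a fold of 3.02. Here the near-unique MHS was the strongest at the locus. The MHS from 206969082 to 206969365 on part 2 of 2A had a fold of 11.2 and 40 reads, 188 bp from a common spikelet MHS with a fold of 10.8. The seedling MHS on that neighbour had a fold of 15.9 and 57 reads, so the spikelet list held 1 MHS where the seedling list held 2 strong ones side by side. The MHS from 206075802 to 206076285 on part 1 of 1D had a fold of 10.9 and 67 reads, 319 bp from a unique spikelet MHS. That neighbour had 63 reads at its summit but a local background of 20.4 reads, and so a fold of 2.99.

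The spikelet had the largest single value. The MHS from 213005110 to 213005649 on part 2 of 4A had a fold of 18.9, a q of 2.79e-104 and 114 reads, 379 bp from a unique seedling MHS (213004446 to 213004730) with a fold of 6.05 and 21 reads. The next spikelet MHS lay 28668 bp away. The MHSs from 83054156 to 83054608 on part 2 of 5A and from 89684874 to 89685488 on part 2 of 5D had folds of 11.8 and 11.7. Their seedling neighbours, also unique, lay 380 and 365 bp away and had folds of 4.37 and 3.14 with 15 and 13 reads. Among spikelet MHSs with a common neighbour, the largest fold was 9.96, from 32041703 to 32042056 on part 2 of 7B, 188 bp from a seedling MHS with a fold of 3.30. It was followed by folds of 9.27 on part 2 of 1A (19173925 to 19174365) and 9.15 on part 2 of 5A (59413076 to 59413385). In the seedling, the largest fold with a common neighbour after those on 1B and 2A was 9.70, from 244803620 to 244803960 on part 2 of 7A.

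The mutual pairs with the strongest MHSs on both sides were led by a pair on part 1 of 1D. The seedling MHS (80214270 to 80214638) had a fold of 6.74 and 28 reads, and the spikelet MHS (80213940 to 80214255) had a fold of 7.14 and 26 reads. The gap was only 14 bp, but the summits were 373 bp apart. On part 1 of 6A, the seedling MHS from 230721935 to 230722500 and the spikelet MHS from 230722743 to 230723035 had folds of 6.46 and 7.32, with 38 and 40 reads and a gap of 242 bp. On part 2 of 7D, the seedling MHS from 117624764 to 117625000 had a fold of 8.62 with 34 reads, and the spikelet MHS from 117624077 to 117624379 a fold of 6.25 with 26 reads, 384 bp to the left. These pairs were picked for a high fold on both sides, so their read numbers do not describe the mutual pairs in general.

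**Figure D4:**
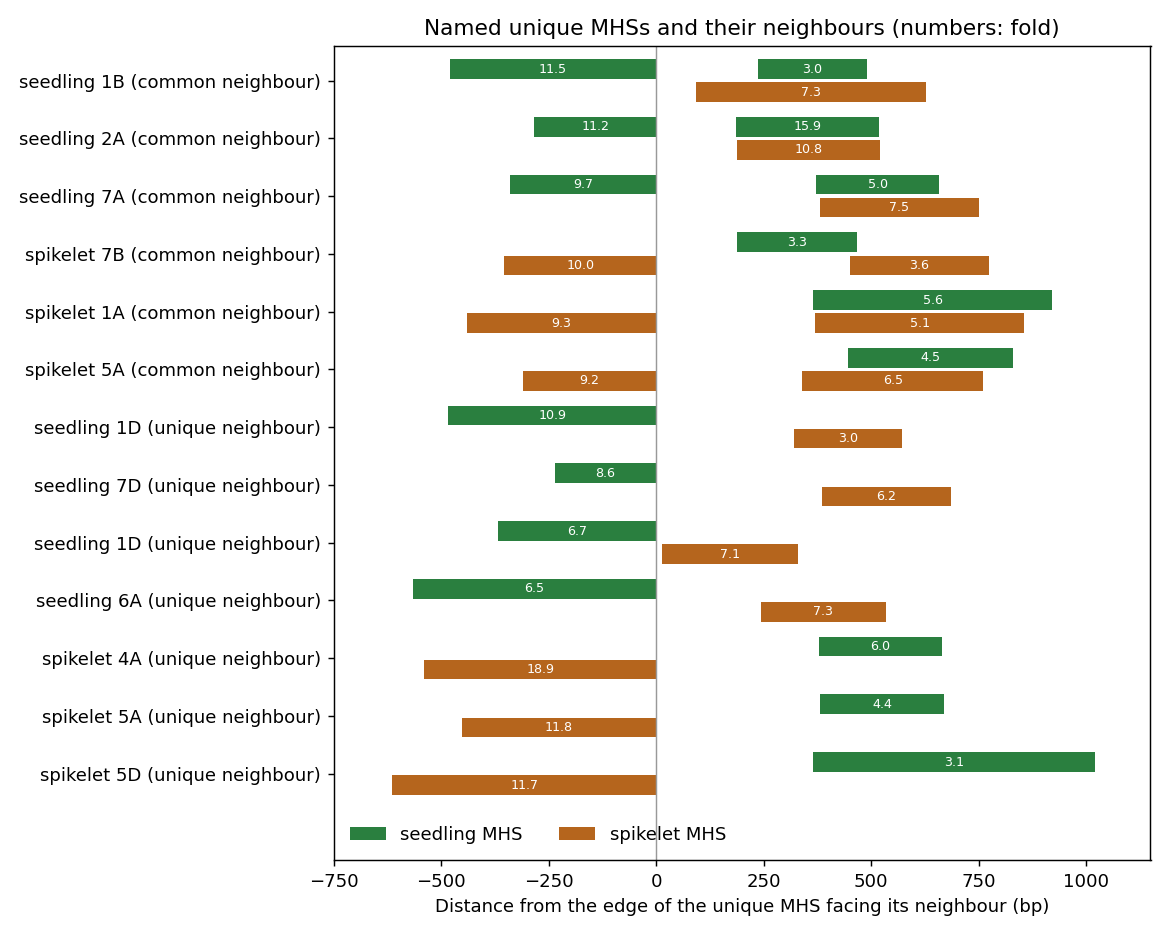
Positions of the named near-unique MHSs and their neighbours in bp from the edge that faces the neighbour (x axis; loci with the neighbour at the left are mirrored), with seedling MHSs in green, spikelet MHSs in brown and the fold printed in each. The upper 6 loci have a common neighbour, on which MHSs of both tissues overlap, and the lower 7 have a unique neighbour; the largest fold is the 18.9 on 4A.

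Near-unique MHSs rarely followed each other directly in a list, of which they made up only 4.63% (seedling) and 4.84% (spikelet). Beside a common neighbour, an adjacent MHS of the list was also nearly always a common one, so the counts are a description only. In the seedling, 12574 near-unique MHSs stood alone between MHSs of other classes, 383 series held 2, 17 held 3 and 1 held 4. In the spikelet, 12443 stood alone, 457 series held 2 and 15 held 3. The series of 4 was on part 1 of 6D. Its first 3 MHSs, from 289362735 to 289363998, had folds of 4.10, 4.20 and 2.88 and shared 1 neighbour, a spikelet MHS of 200 bp with a fold of 3.17 that lay in the space between the first and the second. The fourth lay 431 bp from a common spikelet MHS with a fold of 9.22. The first series of 3 in the spikelet, on part 2 of 2A from 261254366 to 261267467, had 3 separate unique neighbours at gaps of 300, 55 and 88 bp and folds from 3.39 to 3.80.

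The near-unique share of the unique MHSs was similar across the chromosomes. It ranged from 10.8% on 5B to 14.2% on 2A in the seedling and from 13.4% on 1B to 16.7% on 5A in the spikelet. It was higher in the spikelet on all 21 chromosomes, but the spikelet also had fewer unique MHSs, 90401 against 107047. As a share of all MHSs, near-unique MHSs were less frequent in the spikelet on 1A, 2A, 3A and 4A and more frequent on the other chromosomes. Of the unique seedling MHSs, subgenome B had the lowest near-unique share, with 11.4% (11.1 to 11.8), against 13.2% (12.9 to 13.6) in A and 13.0% (12.6 to 13.3) in D. The B chromosome had the lowest share in each of the 7 homoeologous groups. In the spikelet the subgenomes were closer, with 14.4% in B, 15.1% (14.7 to 15.5) in A and 15.0% (14.6 to 15.4) in D, and B was lowest in 5 of 7 groups. The exceptions were group 4, where 4B had the highest share of the group with 16.0%, and group 6, where 6D was lowest and 6B had 14.2%. Per Mb, there were 0.976 near-unique seedling MHSs in A, 0.846 in B and 1.06 in D, and 0.921, 0.872 and 1.10 in the spikelet. These values do not take the density of all MHSs into account. Of all MHSs of a subgenome, near-unique ones were 4.95% in A, 4.31% in B and 4.64% in D in the seedling. In the spikelet they were 4.91%, 4.69% and 4.91%.

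**Figure D5:**
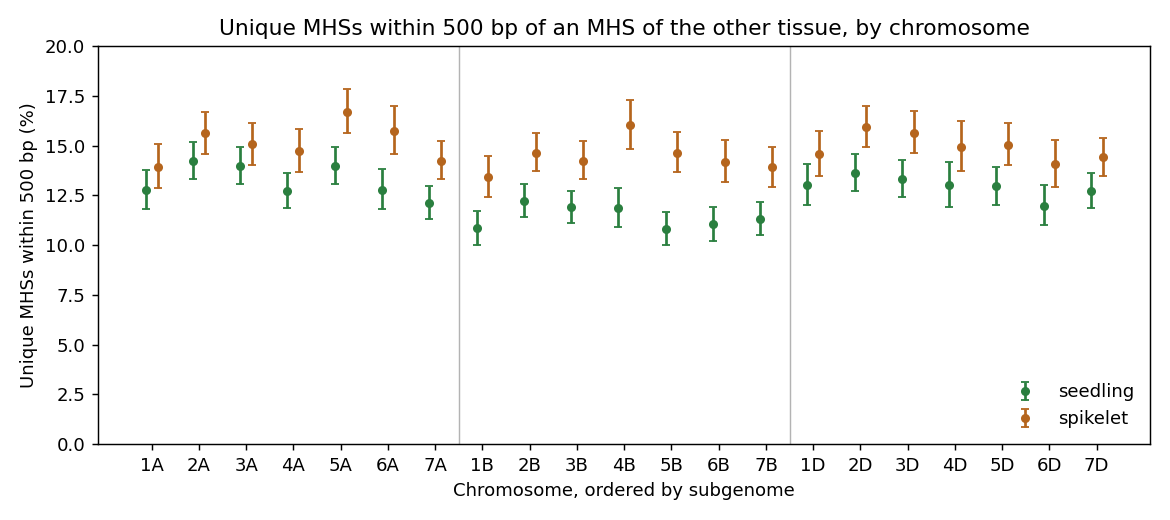
Share (%) of the unique MHSs of each chromosome that had an MHS of the opposite list at 500 bp or less (y axis), for seedling (green) and spikelet (brown), with 95% Wilson intervals; chromosomes are ordered by subgenome (x axis). The spikelet share lies above the seedling share on all 21 chromosomes, and the seedling shares on B chromosomes lie between 10.8% and 12.2%. Both are shares of unique MHSs, of which the spikelet had fewer.

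The subgenomes differed more by layout in the seedling. Subgenome A held 37.6% (36.5 to 38.7) of the seedling MHSs beside a common neighbour but 33.6% (32.3 to 34.8) of those beside a unique one. In the spikelet it held 34.1% (33.0 to 35.1) and 33.7% (32.4 to 34.9). The mutual pairs were similar in number, with 1798 in A (33.7%), 1793 in B (33.6%) and 1747 in D (32.7%). For comparison, A, B and D held 33.4%, 34.8% and 31.8% of the common seedling MHSs. They held 33.7%, 36.3% and 30.1% of the other unique seedling MHSs. Against the other unique seedling MHSs, B had a smaller and D a larger share of the pairs. The shares of the common seedling MHSs lay inside the intervals of the pairs, 32.3 to 34.9 in B and 31.5 to 34.0 in D. In the spikelet, B and D held 34.7% and 31.8% of the common MHSs and 34.9% and 32.0% of the other unique MHSs, closer to the pairs. The share of common neighbours among near-unique seedling MHSs was 61.5% (60.2 to 62.9) in A, 57.6% (56.1 to 59.0) in B and 57.0% (55.5 to 58.5) in D. It was highest on 1A, with 65.4%, and lowest on 7D, with 54.4%.

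The chromosome ends, taken as the outermost 10% on each side, held 35.1% of the near-unique seedling MHSs (34.3 to 36.0) and 34.9% of those in the spikelet (34.1 to 35.7), where even placement would give 20%. These shares lay between those of common MHSs, 31.8% and 31.6%, and of other unique MHSs, 37.0% and 37.8%. The layouts differed here as well. Beside a common neighbour, 31.7% (30.7 to 32.7) of the seedling and 31.3% (30.2 to 32.3) of the spikelet MHSs lay at the ends, close to the common MHSs. Beside a unique neighbour, 40.1% (38.8 to 41.4) and 40.0% (38.8 to 41.3) did, above the other unique MHSs. These shares come largely from the same loci, since the 5338 mutual pairs held most of these MHSs in either tissue. On single chromosomes the share of near-unique MHSs at the ends ran from 26.3% on 5B to 44.4% on 4D in the seedling and from 27.2% on 5B to 40.5% on 4D in the spikelet. The MHSs were not gathered in a few places. The seedling MHSs occupied 7610 windows of 1 Mb, 4142 of them with 1 MHS, and no window held more than 10. The spikelet MHSs occupied 7443 windows, 3985 with 1 MHS, and the fullest held 13.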

How the data were processed

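MH-seq of 1 seedling and 1 spikelet list was used. Per the study's methods, fastp, bowtie2 and Sambamba were used by the authors for trimming, mapping and removal of duplicates. They kept reads of high mapping quality, merged 2 replicates per tissue and ran MACS2 version 2.0. Merging hides replicate variation. The deposited score is the whole part of 10 times the −log10 q and was not used. The deposited fold is a ratio of summit reads plus 1 to local background plus 1. The deposited −log10 p-value and −log10 q-value refer to the summit. The methods state a q of 0.01, but 6157 seedling and 1169 spikelet peaks lay above it, among them 322 and 73 near-unique MHSs. All peaks were kept.

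Overlap meant at least 1 shared bp, and a gap of 0 bp meant touching. Summit reads were solved from fold and p. Chromosome lengths were taken from the last peak of each sequence part. Shares have 95% Wilson intervals and medians 95% binomial order-statistic intervals. No p-value was computed, since peaks are not replicates. The calculations were tested on simulated data. Members, measures and alternatives were chosen with earlier results of these data known. The MHSs named are, per list, the 3 with the largest fold, the 3 with the largest fold beside a common neighbour, the 3 mutual pairs whose smaller fold is largest, and the longest series. Gene annotation and sequence were not used here. Calculations ran in Python 3.11.15 with pandas 2.3.3, numpy 2.4.6 and scipy 1.17.1, and figures were drawn with matplotlib 3.10.9.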

Additional observations from a re-analysis of the deposited data

How the results depend on the processing

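Of 80 values under 8 other settings, 34 stayed close to the reported value and 46 moved, by more than 1.5 times for a count or out of the 95% interval for a median or share. These intervals are narrow, so small shifts count. Values are given for the seedling and then the spikelet. A limit of 250 bp gave 5772 and 6395 near-unique MHSs, median gaps of 147 and 139 bp, common neighbours for 45.8% and 50.8%, median widths of 294 and 286 bp, and in the seedling 36.4% at the chromosome ends. A limit of 1000 bp gave 23516 and 24348 MHSs, 443 and 454 bp, 61.8% and 62.9%, and widths of 294 and 281 bp. When both lists were limited to a q of 0.001, the median gap was 285 and 270.5 bp, the width 306 and 291 bp, the common neighbours 61.9% in the spikelet, and the ends held 34.3% in the seedling. When only the counted list was limited, to a q of 1e-05, 6312 and 8765 MHSs were left, with gaps of 289 and 276 bp, common neighbours for 62.3% and 61.4%, 33.5% and 33.9% at the ends, and widths of 334 and 306 bp. An overlap of at least 50% of the MHS, with smaller overlaps set to a gap of 0, gave 35782 and 26565 MHSs, gaps of 0 and 5 bp, common neighbours for 67.5% and 53.3%, widths of 460 and 325 bp, and 33.7% at the ends in the seedling. Limiting both lists to a q of 0.01 moved no value.

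Merging MHSs of one list at most 100 bp apart left the seedling list as it was and removed 2565 spikelet MHSs. It moved the spikelet gap to 268 bp and the common neighbours to 56.8%. Merging at less than 140 bp, added after the spacing of the lists was seen, removed 4396 spikelet MHSs and gave 276 bp and 55.1%. The number of near-unique spikelet MHSs became 12291.

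No paired analysis was possible because the authors merged the replicates of a tissue into 1 list. For the same reason no replicate was left out.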
